A study of Mus musculus with 20 samples.

Results

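The genes described here encode proteins that bind fatty acids inside cells or bring them in, with the lipase that frees them from lipoproteins and the receptor that senses them. They were chosen by name, with earlier results of these data known: 10 genes (Fabp1, Fabp2, Fabp4, Fabp5, Fabp7, Cd36, Slc27a2, Slc27a4, Lpl and Pparg) of the 18193 genes that the arrays name. Each gene was represented by its probe set with the highest mean over all 20 arrays, and the members' levels, spread and co-variation over the mice are given as descriptions unless a test is named. Of the 10, 9 passed the filter on low values, a mean of at least 6.505, the median of the probe sets. Pparg, with a mean of 6.47, did not, and its diet difference was not tested.

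Bulk liver RNA was measured in 20 mice, all males of the inbred strain C57BL/6J and 8 weeks of age per the labels, with 1 array per mouse. The 10 MSXH mice ate, for 4 weeks, a high-fat diet (45 kcal% fat) containing 0.05% of a maple syrup extract that the labels call "maple syrup extract high". The 10 HFD mice ate that high-fat diet without the extract. All mice were acclimated on a low-fat diet, fasted for 16 h and killed on day 30, and no low-fat group was analysed here, so every value is from high-fat feeding and fasting. The labels call the arrays biological replicates.

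Fatty acid binding proteins are small cytosolic carriers that hold long-chain fatty acids and hand them to enzymes and nuclear receptors. Cd36 and the Slc27a transport proteins take fatty acids across or trap them at the cell membrane, and lipoprotein lipase releases them from circulating triglyceride. PPAR-gamma, encoded by Pparg, is a fatty acid-activated nuclear receptor best known from adipocytes, and in mouse liver it is known to rise with fat storage, together with Cd36 and Fabp4. Fabp1 is the main carrier of hepatocytes and a known target of PPAR-alpha.

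RefSeq promoters (GRCm38.p6) were at hand for 7 of the 10 members, 9 promoters in all. The 250 bases before the transcript start are shown for the hepatocyte carrier Fabp1 and the transporter Cd36, which take part in the closest correlations described further on, and for Fabp2, whose diet difference had the smallest p. Capitals mark the PPAR hexamer AGGTCA, on either strand, and the TATA box TATAAA, on either strand.
Fabp1 promoter, chr6:71199629-71199878, plus strand: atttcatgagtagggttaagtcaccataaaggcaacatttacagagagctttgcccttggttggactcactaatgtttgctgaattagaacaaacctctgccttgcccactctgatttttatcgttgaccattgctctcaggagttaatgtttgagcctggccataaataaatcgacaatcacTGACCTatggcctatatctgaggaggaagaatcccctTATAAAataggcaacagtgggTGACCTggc
Cd36 promoter, chr5:17835897-17836146, minus strand: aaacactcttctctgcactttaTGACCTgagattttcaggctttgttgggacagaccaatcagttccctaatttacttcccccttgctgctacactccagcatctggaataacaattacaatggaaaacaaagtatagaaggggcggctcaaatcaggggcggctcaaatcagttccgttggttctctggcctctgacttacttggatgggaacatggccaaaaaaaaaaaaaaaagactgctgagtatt
Fabp2 promoter, chr3:122894822-122895071, plus strand: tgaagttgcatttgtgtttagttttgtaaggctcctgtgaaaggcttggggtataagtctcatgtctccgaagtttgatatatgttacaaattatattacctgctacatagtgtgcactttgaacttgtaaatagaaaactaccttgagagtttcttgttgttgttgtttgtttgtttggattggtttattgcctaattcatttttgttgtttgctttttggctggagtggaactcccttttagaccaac
The Fabp1 promoter held the hexamer at 2 places, beginning at positions -67 and -9 from the start, both on the minus strand, and a TATA box beginning at position -30. That of Cd36 held the hexamer once, at position -228 on the minus strand, and that of Fabp2 held neither motif. The hexamer was in 6 of the 9 member promoters, those of Fabp1, Cd36, Fabp7, Slc27a2 and 2 of the 3 of Pparg, against 14.0% of all 32851 RefSeq promoter windows of that length. The direct repeat AGGTCANAGGTCA, searched on both strands and containing the hexamer, was in 0 of the 9 and in 0.0335% of all windows. The TATA box was in 2 of the 9 and in 12.4% of all. These are exact letter matches only. An exact direct repeat is so rare that its absence from 9 promoters says nothing about the members. Repeats differing from it by a letter were not counted.

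Levels are deposited log2 values, ranging from 5.199 to 14.96 over all probe sets. The values are strongly compressed between arrays: the median SD of a probe set over the 20 arrays was 9.33e-06, and 49 of 45101 probe sets spanned more than 0.1. They cannot be read as fold changes. Differences are therefore given as Hedges' g, the MSXH minus HFD difference of means divided by the pooled SD, with its 95% interval, and deviations from a gene's mean over the 20 mice are given in millionths of a deposited log2 unit. Array medians ran from 6.505341 to 6.505517. How far a probe set stood above background cannot be read from the files, and precision is limited by the 20 arrays. Hepatocyte markers lay between 11.42 (Tat) and 14.74 (Alb). The adipocyte markers Adipoq (5.67) and Lep (6.23) and the enterocyte markers Vil1 (5.97), Alpi (6.22) and Cdx1 (6.14) lay below the filter level. Above it were the adipocyte genes Lipe (6.98) and Retn (6.77) and the enterocyte genes Cdx2 (6.88) and Lct (6.55), so 2 of 4 measured adipocyte and 2 of 5 measured enterocyte markers passed.

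No member differed between the diets past the threshold of adjusted p = 0.05. With limma, 0 of the 9 members tested were called (adjusted p = 0.9998 for each), where 0% of all 11728 genes tested were called. For Slc27a2 the limma standard error of the difference, 0.622 millionths, exceeded the whole range over the mice, 0.43 millionths. No split of its values by diet could therefore have passed, and its lack of a call says nothing about the diets. At an unadjusted p under 0.05 there was 1 member, Fabp2, lower in MSXH mice, where 3.62% of all genes had such a p (1.74% lower and 1.88% higher in MSXH). Of the 9, 4 had a g above 0 and 5 below, with a median of -0.07, against a median of -0.00692 over all genes tested. In all 10 genes the values of both diets overlapped. How many of all genes overlap was not counted, so this marks nothing particular to the members.

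**Figure D1:**
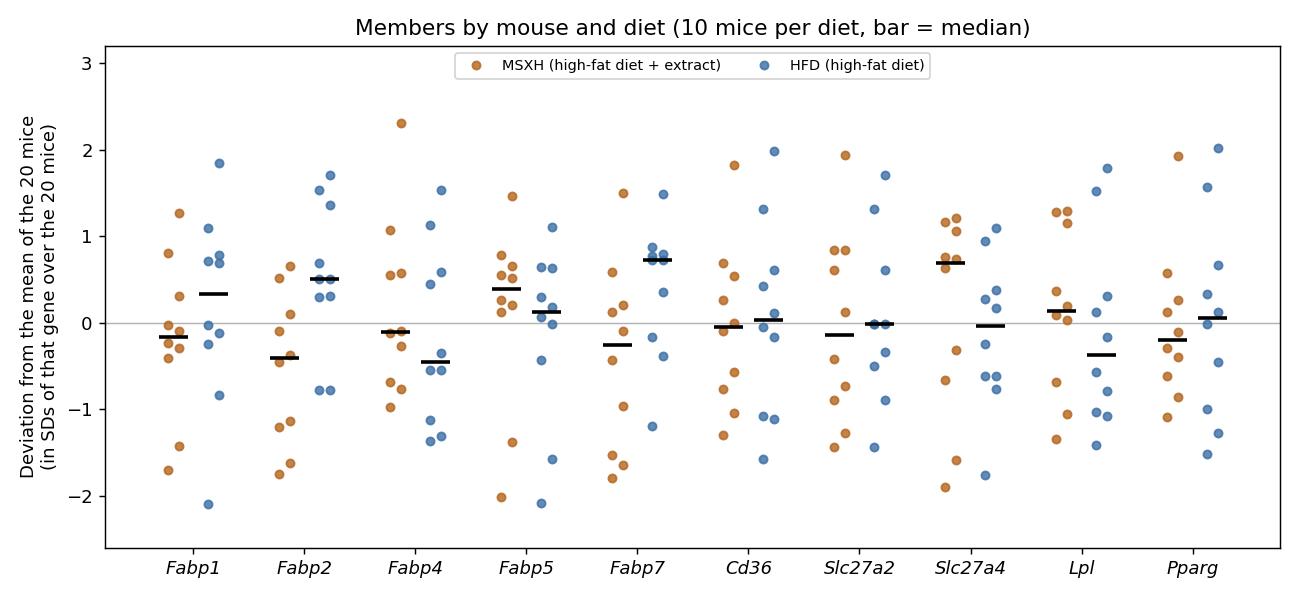
Each point is 1 mouse, plotted as its deviation from the mean of the 20 mice in SDs of that gene (vertical axis), with MSXH left of HFD for each of the 10 genes and bars at the medians of 10 mice. The diets overlap in every gene, and in Fabp2 the MSXH points lie lowest relative to HFD.

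**Figure D2:**
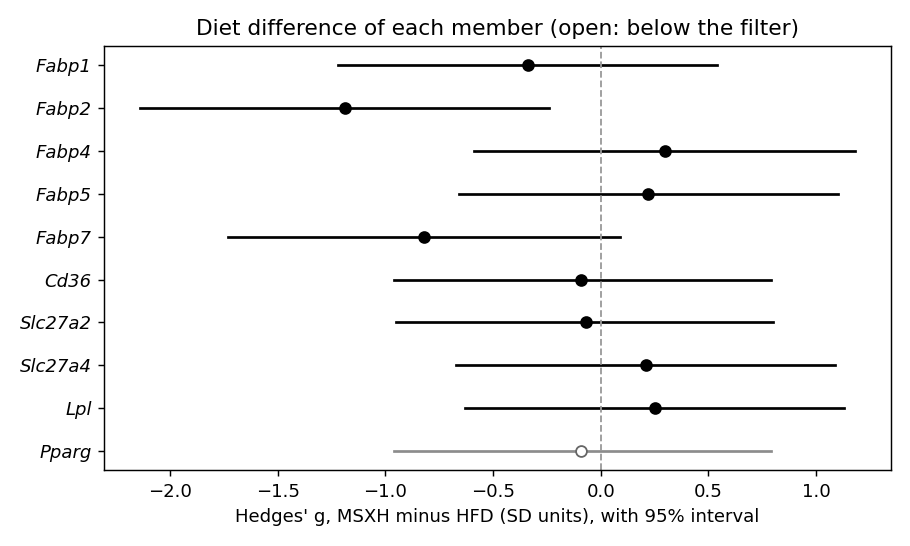
Hedges' g of MSXH minus HFD (horizontal axis, SD units) with its 95% interval for each gene, from 10 mice per diet, and Pparg, below the filter, as an open point. The interval of Fabp2 (-2.14 to -0.24) lies below 0, and the other 9 include 0.

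Among the intracellular carriers, Fabp2 had the largest difference in SD units. Fabp2 encodes the intestinal fatty acid binding protein, named for the enterocyte. Its probe set had a mean of 11.07. In MSXH mice the lowest, median and highest deviations were -74.4, -17.4 and 28.3 millionths, and in HFD mice they were -33.3, 21.4 and 72.7. Of the 10 MSXH mice, 2 lay above the HFD median, and the SD within a diet was 36.6 millionths in both. The mean difference was -45.6 millionths with a standard error of 16.1, and g was -1.19 (95% interval -2.14 to -0.24, unadjusted limma p = 0.0108, adjusted p = 0.9998). The difference did not pass. When each array was shifted to the same median, which moves arrays by more than Fabp2 varies, g was -0.32. No other probe set of this gene was at hand to compare.

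Fabp7, the brain-type carrier, which in mouse liver is known from Kupffer cells, had a mean of 7.37. The lowest, median and highest deviations were -199, -28.8 and 167 millionths in MSXH mice and -132, 81.2 and 166 in HFD mice. Only 1 MSXH mouse lay above the HFD median, although the highest mice of both diets were level. g was -0.82 (95% interval -1.73 to 0.09, unadjusted limma p = 0.0669, adjusted p = 0.9998). The SD was 120 millionths in MSXH mice and 86.0 in HFD mice.

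Fabp1 had a mean of 13.90 and little deposited spread. Its lowest, median and highest deviations were -16.2, -1.61 and 12.1 millionths in MSXH mice and -20.0, 3.14 and 17.6 in HFD mice, with g at -0.34 (95% interval -1.22 to 0.54). The second probe set of Fabp1 had nearly the same mean, also 13.90, but an SD of 5.16e-05 against 9.52e-06. It followed the first over the 20 mice (r = 0.84, rho = 0.75), yet its g was 0.13. Both intervals include 0, so the direction of the Fabp1 difference is not settled.

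Fabp4, the carrier of adipocytes, macrophages and capillary endothelium, had a mean of 8.62. Its deviations ran from -190 through a median of -21.6 to 452 millionths in MSXH mice, and from -268 through -88.2 to 301 in HFD mice. MSXH replicate 9 was the highest of all 20. g was 0.30 (95% interval -0.59 to 1.18). Of its 3 other probe sets, the one with a mean of 7.75 followed the chosen one closely (r = 0.93) and the other 2, with means of 6.66 and 6.63, less so (r = 0.51 for each). Their g ran from -0.23 to 0.59, with 1 of the 3 sharing the sign.

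Fabp5, the epidermal-type carrier, also made by macrophages, had by far the widest deposited spread of the 10 genes. Its SD of 0.143 was the fifth largest of the 18193 named genes, rank 5, and 128 times that of Lpl, the next widest of the members. The lowest, median and highest levels were 8.18, 8.52 and 8.68 in MSXH mice and 8.17, 8.49 and 8.63 in HFD mice. The diets covered nearly the same range. The mean was 8.486 ± 0.148 in MSXH mice and 8.452 ± 0.143 in HFD mice (SD, n = 10 each), a difference of 0.0336 with a standard error of 0.064 (g = 0.22, 95% interval -0.66 to 1.10, unadjusted limma p = 0.606, adjusted p = 0.9998).

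The spread of Fabp5 came largely from 4 low mice, 2 of each diet. MSXH replicates 10 and 2 stood at 8.18 and 8.27, and HFD replicates 9 and 8 at 8.17 and 8.24. The other 16 mice lay at 8.41 or above. The second Fabp5 probe set, with a mean of 7.30 and a range of 0.292, ordered the mice almost identically (r = 0.996, rho = 0.970), and its g was 0.21.

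**Figure D3:**
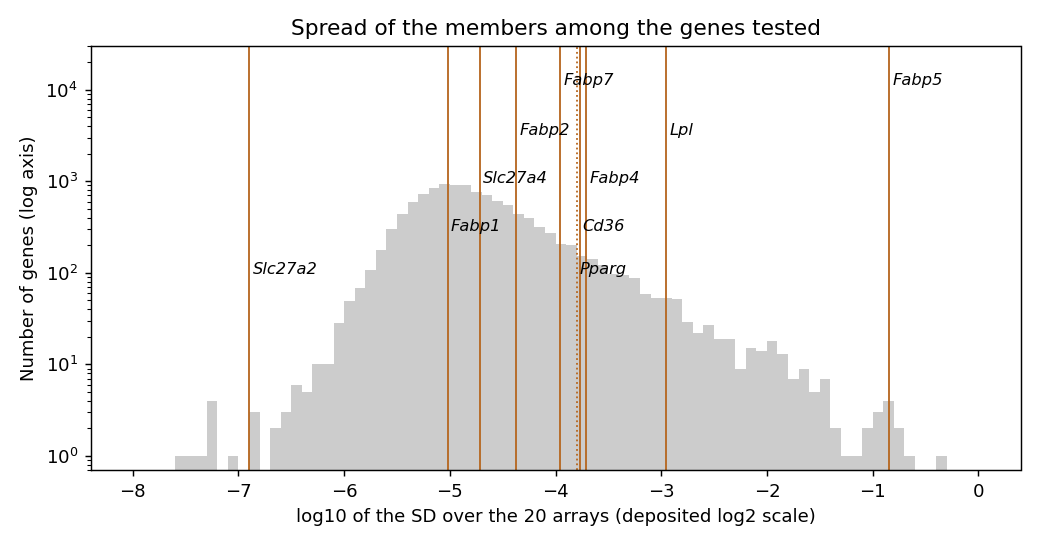
Histogram of the SD over the 20 arrays of the 11728 genes tested (horizontal axis, log10 of the SD on the deposited log2 scale; vertical axis, number of genes, log axis), with the members as vertical lines and Pparg, not tested, dotted. Fabp5 lies near the upper end, at an SD of 0.143, and Slc27a2 near the lower end, at 1.27e-07.

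How far the deposited values spread is a property of the probe set as well as of the gene, as the 2 probe sets of Fabp1 show. The range over the 20 mice was above 0.1 for Fabp5 alone of the 10 members. It was 0.00358 for Lpl and between 0.00072 and 4.3e-07 for the other 8. In units of its own SD each member spanned 3.11 to 3.95. Between genes, the order of the mice and distances in SD units can be compared, not the size of the deposited differences.

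Among the transporters, Cd36, the scavenger receptor that takes up long-chain fatty acids, had a mean of 8.89. Its lowest, median and highest deviations were -220, -8.50 and 309 millionths in MSXH mice and -267, 5.26 and 337 in HFD mice. The diets were nearly superimposed, with g at -0.09 (95% interval -0.96 to 0.79). Its 2 other probe sets followed the first over the mice (r = 0.95 and 0.86), with g of -0.17 and 0.12.

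Slc27a2, the very long-chain acyl-CoA synthetase and transporter FATP2 of hepatocytes, had a mean of 14.17. It was nearly constant in the deposited values, with a range of 0.43 millionths. Deviations were -0.183, -0.018 and 0.247 millionths in MSXH mice and -0.183, -0.003 and 0.217 in HFD mice, with g at -0.07 (95% interval -0.95 to 0.80). Slc27a4, the FATP4 transporter, had a mean of 7.81. Deviations were -36.3, 13 and 23.1 millionths in MSXH mice and -33.5, -0.615 and 21.0 in HFD mice. The MSXH median was higher, but g was 0.21 (95% interval -0.67 to 1.09). Each of these transporters had 1 probe set.

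Lpl, which hydrolyses lipoprotein triglyceride and is low in adult hepatocytes, had a mean of 8.21. Deviations were -1500, 156 and 1440 millionths in MSXH mice and -1580, -414 and 2000 in HFD mice. In MSXH 7 of 10 mice lay above the HFD median, but the highest mouse was HFD replicate 3, and g was 0.25 (95% interval -0.63 to 1.13). Its second probe set followed the first (r = 0.97, rho = 0.95), with g at 0.04. Pparg had deviations of -173, -32.2 and 307 millionths in MSXH mice and -241, 9.72 and 321 in HFD mice, with g at -0.09 (95% interval -0.96 to 0.79). Its highest mice were MSXH replicate 3 and HFD replicate 3. Over the 5 members with several probe sets, 4 of the 8 other probe sets shared the sign of the chosen one.

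The other genes of these pathways showed the same lack of calls. The lists were chosen with earlier results known, and are given as counts. Of the other genes of fatty acid binding, uptake and activation, 10 of 13 were tested, 0 were called, 5 had a g above 0 and 5 below (median -0.0213). Cav1, caveolin of membrane pits, had g = 0.84 (95% interval -0.08 to 1.75), Fabp3, the muscle-type carrier, 0.83, and Slc27a1, the FATP1 transporter, -0.82. Of the genes that handle lipases and lipoproteins, 11 of 14 were tested and 0 called, with 7 above 0 and 4 below (median 0.0613). Gpihbp1, which holds lipoprotein lipase on capillaries, had g = 0.60, Lipg, endothelial lipase, 0.59, and Apoa5, an activator of lipoprotein lipase, 0.41.

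Of the PPAR-gamma partners and fatty liver targets, 9 of 14 were tested and 0 called, with 7 above 0 and 2 below (median 0.0855). Rxrb, a partner receptor, had g = -0.86 (95% interval -1.78 to 0.05), G0s2, an inhibitor of triglyceride lipolysis, 0.35, and Plin2, a lipid droplet coat protein, 0.35. Of PPAR-alpha and its targets, 8 of 11 were tested and 0 called, with 2 above 0 and 6 below (median -0.0489). Ehhadh, of peroxisomal oxidation, had g = -0.27, Acadm, a mitochondrial acyl-CoA dehydrogenase, -0.27, and Cyp4a14, a fatty acid hydroxylase, -0.12. Over the 4 lists, 38 genes were tested and 0 had an unadjusted limma p under 0.05, against 3.62% of all genes tested. Over all genes tested, 49.4% had a g above 0.

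Across the mice, some pairs of members were correlated by Pearson's r. Correlations within each diet are given as descriptions and were not tested. Over the 45 pairs of members, r ran from -0.50 to 0.77 with a median of 0.053, and 4 pairs passed after adjustment over the 45 (permutation test of Pearson's r, 100000 permutations, two-sided), each with a positive r in both diets. Of the 45 pairs 8.89% had an r beyond 0.6 in size, against 3.13% of all pairs of tested genes. With Spearman's rho 0 of the 45 pairs passed after adjustment, so the calls depend on the distances between mice and not only on their order.

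**Figure D4:**
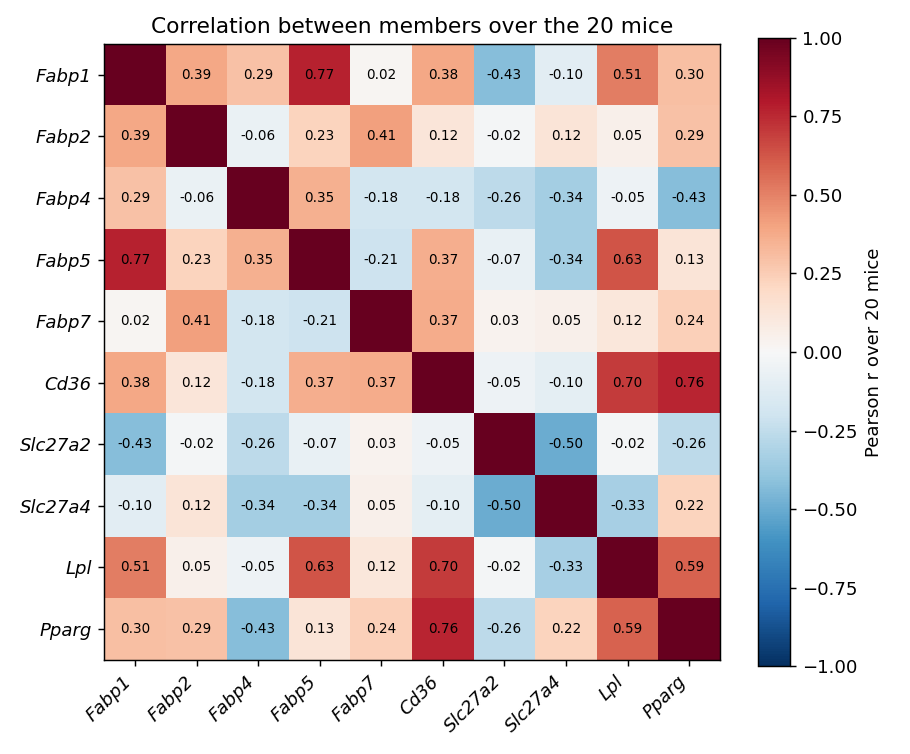
Pearson's r over the 20 mice for each pair of the 10 genes, red for positive and blue for negative values. Cd36, Lpl and Pparg form a red block with r from 0.59 to 0.76, and Fabp1 and Fabp5 have the highest r, 0.77.

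Fabp1 and Fabp5 had r = 0.77 (permutation p = 8e-05, adjusted p = 0.00292) and rho = 0.63 (permutation p = 0.00366, adjusted p = 0.0823). Within diets r was 0.71 in MSXH mice and 0.91 in HFD mice, and rho was 0.46 in MSXH mice and 0.90 in HFD mice. The 4 mice lowest in Fabp5 were all below the mean in Fabp1. Without those 4, r over the other 16 was 0.23, but the mice were left out by their Fabp5 level, which narrows its range and by itself lowers r. Within diets, without the 2 low mice of each, r was -0.10 in the other 8 MSXH mice (rho = -0.05) and 0.71 in the other 8 HFD mice (rho = 0.81). Whether the diets differ in this was not tested. Leaving out the 2 mice farthest from the Fabp1 median, r was 0.72. When each array was shifted to the same median, which moves arrays by more than Fabp1 varies, r was 0.30.

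Cd36 and Pparg had r = 0.76 (permutation p = 0.00013, adjusted p = 0.00292) and rho = 0.66 (permutation p = 0.00228, adjusted p = 0.0823). Within diets r was 0.52 in MSXH mice and 0.91 in HFD mice, and rho was 0.212 in MSXH mice and 0.879 in HFD mice. The highest mice for both genes were MSXH replicate 3 and HFD replicates 3 and 5. Leaving out the 2 mice farthest from the Cd36 median, r was 0.57 and the pair did not pass (adjusted permutation p = 0.188). Choosing mice by their Cd36 level narrows its range and by itself lowers r. Without any 1 mouse, r ran from 0.689 to 0.806. Pparg lies below the filter level, and whether its probe set measures transcript or background in these livers is not known.

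Cd36 and Lpl had r = 0.70 (permutation p = 0.00053, adjusted p = 0.00795) and rho = 0.60 (permutation p = 0.00619, adjusted p = 0.0928). Their r was 0.80 in MSXH mice and 0.66 in HFD mice, and their rho was 0.818 in MSXH mice and 0.406 in HFD mice. Fabp5 and Lpl had r = 0.63 (permutation p = 0.00303, adjusted p = 0.0341) and rho = 0.57 (permutation p = 0.00984, adjusted p = 0.111). For this pair r was 0.70 in MSXH mice and 0.55 in HFD mice, and rho was 0.394 in MSXH mice and 0.455 in HFD mice. Leaving out the 2 mice farthest from the first gene's median, r was 0.56 for both pairs and neither passed (adjusted p = 0.188). Lpl and Pparg had r = 0.59 (adjusted permutation p = 0.0625), which did not pass. The lowest r of all, -0.50 between Slc27a2 and Slc27a4, did not pass either (adjusted permutation p = 0.157).

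**Figure D5:**
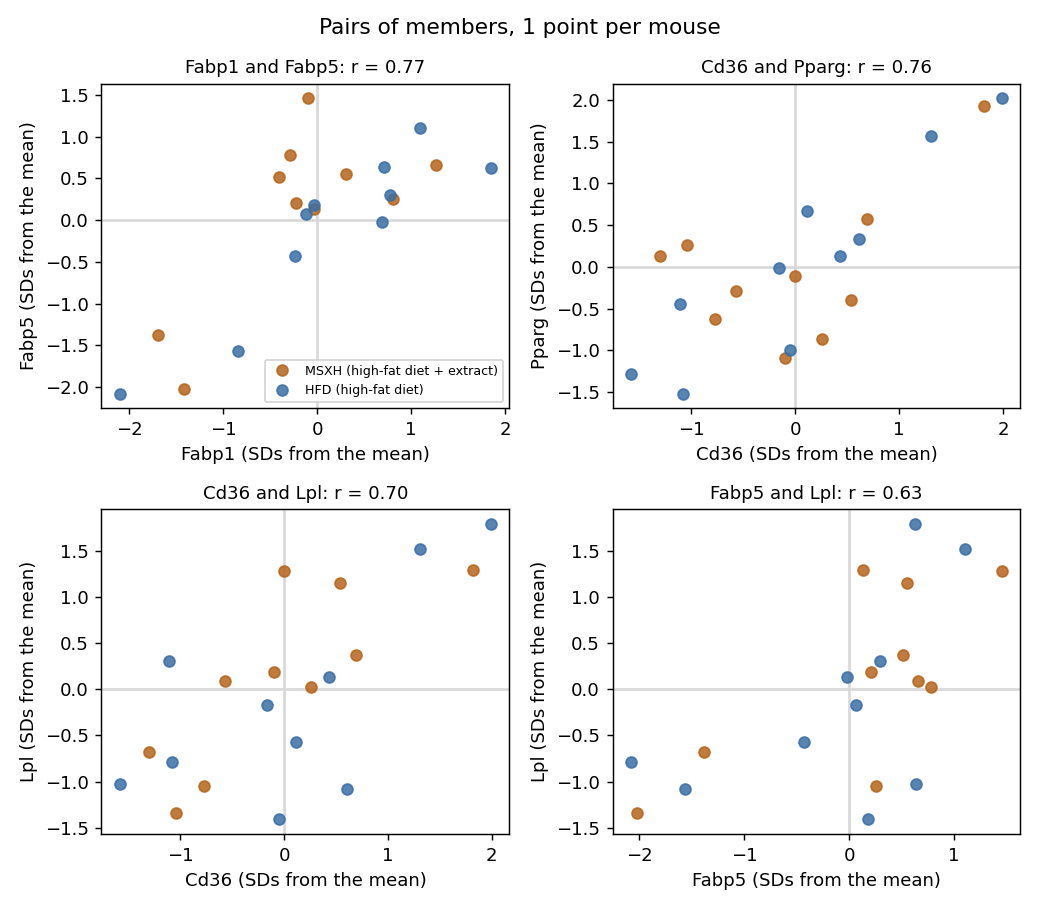
The 4 pairs of genes that passed, with each mouse as a point and both axes in SDs from the mean of the 20 mice (MSXH and HFD by colour). The 4 mice low in Fabp5, 2 of each diet, are also below the mean in Fabp1, and the points of both diets are mixed in each panel.

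Measures of other cells and of RNA quality moved with the same 4 genes. All 8 Kupffer cell and macrophage markers were tested, at mean levels between 6.63 and 10.54, and none differed between diets (0 called, 2 with g above 0). Their summed level ran from 68.1649 to 68.1769 in MSXH mice and from 68.1679 to 68.1779 in HFD mice. Their mean standardised level had r = 0.73 with Lpl, 0.67 with Fabp5, 0.65 with Cd36 and 0.63 with Fabp1, but 0.21 with Fabp4 and 0.30 with Pparg. It had r = 0.252 with Fabp7 (0.422 in MSXH and -0.118 in HFD mice), 0.231 with Fabp2, 0.034 with Slc27a2 and -0.418 with Slc27a4. With that level as a covariate, r was 0.78 for Cd36 and Pparg (adjusted permutation p = 0.0027), 0.61 for Fabp1 and Fabp5 (adjusted permutation p = 0.0997), 0.44 for Cd36 and Lpl, and 0.27 for Fabp5 and Lpl. Since the RNA is of whole liver, more cells of a type and more RNA per cell cannot be told apart.

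The difference between 3' and 5' actin control probe sets (3' minus 5'), which grows as RNA degrades, had r = -0.63 with Fabp1 (permutation p = 0.00338, rho = -0.39), -0.62 with Cd36 (permutation p = 0.00352, rho = -0.64), -0.55 with Lpl (permutation p = 0.0107, rho = -0.40) and -0.52 with Fabp5 (permutation p = 0.0181, rho = -0.22). Adjusted over the 10 members these permutation p-values were 0.0176, 0.0176, 0.0355 and 0.0452. Within diets r was -0.30 in MSXH and -0.87 in HFD mice for Fabp1, -0.50 and -0.75 for Cd36, -0.60 and -0.64 for Lpl, and -0.45 and -0.72 for Fabp5. Leaving out the 2 mice farthest from the control's median, r was -0.37 for Fabp1, -0.55 for Cd36, -0.45 for Lpl and -0.09 for Fabp5. With the control as a covariate, r was 0.67 for Fabp1 and Fabp5 (adjusted permutation p = 0.0146), 0.71 for Cd36 and Pparg (adjusted permutation p = 0.00765), 0.55 for Cd36 and Lpl (adjusted permutation p = 0.0894), and 0.47 for Fabp5 and Lpl (adjusted permutation p = 0.197). With this covariate 3 further pairs passed, all negative: Fabp4 and Pparg (r = -0.72, adjusted permutation p = 0.00765), Slc27a2 and Slc27a4 (r = -0.67, adjusted permutation p = 0.0146) and Fabp4 and Cd36 (r = -0.64, adjusted permutation p = 0.0193). Without it their r was -0.43, -0.50 and -0.18. Slc27a2 spanned only 0.43 millionths over the mice. Without the covariate its r with Slc27a4 was -0.66 in MSXH and -0.26 in HFD mice, and rho was -0.705 and 0.043. The control and the Kupffer level were themselves related (r = -0.64), so their parts cannot be told apart. With the array medians, 0 of the 10 members had a correlation that passed (lowest adjusted permutation p = 0.119, for Slc27a4 and Pparg).

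The genes with the pattern most like that of the 3 widest members were read from 11719 tested genes, so high values are the extremes of many. For Lpl they were Aif1, a macrophage protein (r = 0.91, rho = 0.87), Tmsb10, an actin-binding thymosin (r = 0.90, rho = 0.86), and Wdfy4, known from dendritic cells (r = 0.89, rho = 0.88). For Fabp5 they were Mbl1, mannose-binding lectin (r = 0.91, rho = 0.72), Adgre5, the leukocyte receptor CD97 (r = 0.88, rho = 0.72), and Lsm6, an RNA-binding protein (r = 0.87, rho = 0.78). For Fabp4 they were Eef1b2, a translation factor (r = 0.75, rho = 0.75), Vcam1, an adhesion molecule (r = 0.75, rho = 0.66), and Ms4a6b (r = 0.75, rho = 0.67).

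Among the 25 tested genes outside the members that spanned more than 0.1, Hsd3b5, a male-biased steroid dehydrogenase, came first for both Fabp5 (r = 0.83, rho = 0.71) and Lpl (r = 0.83, rho = 0.88). Car3, a carbonic anhydrase, had r = 0.72 with Fabp5 and 0.76 with Lpl. Slc25a30, a mitochondrial carrier, had r = 0.70 with Fabp5, and Col3a1, a fibrillar collagen, 0.81 with Lpl. For Fabp4 these genes were less close, at 0.63 for Gadd45g, 0.58 for Scara5 and 0.54 for Upp2. Each of these r was positive within both diets. These are descriptions over 20 mice, with no test.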

How the data were processed

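Liver RNA of 20 mice was measured on 1 array each. Biotin-labelled copies were made from 200 ng of RNA per sample by 3' in vitro transcription, per the labels' protocols, so probes near transcript 3' ends are read. The deposited values were taken as log2 levels from their range. How the authors corrected, normalized and summarised the probes: not given in the sources used here. Of 45101 probe sets, 64 were controls. Of the rest, the platform annotation names 1 gene for 34945, several for 932 and none for 9160. The 34741 gene numbers found in the reference table needed 0 symbol updates. Genes listed without a probe set of their own were not used here.

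Samples were grouped by title. Diets were compared with limma 3.58.1 (R 4.3.3, default lmFit and eBayes) over 11728 genes, with Benjamini-Hochberg adjustment over all of them and a threshold of 0.05. Permutation tests used 100000 resamples (numpy 2.4.6, scipy 1.17.1), and figures matplotlib 3.10.9 in Python 3.11.15. Procedures were tested on simulated data. Named genes were the members, the 3 genes with the smallest p in each pathway list, and, for the 3 widest members, the 3 genes with the highest r among all tested genes and among those spanning more than 0.1. Members and lists were chosen with earlier results of these data known. The Spearman calls, both covariates and the exclusion of the 4 mice low in Fabp5 were added after seeing the data. Promoter sequences are from RefSeq (GRCm38.p6). Alternatives covered scaling, filter, probe set, variance model, weights, replicate block, other tests and leaving out arrays. No pair of arrays held identical values.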

Additional observations from a re-analysis of the deposited data

How the results depend on the processing

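No tested member and no pathway list gene was called under any alternative that was run: other scaling, filter, probe set, variance model, array weights, replicate block, Wilcoxon test or leaving out 1 array. Over all genes 0 were called as well, with a smallest adjusted p of 0.0765 (without MSXH replicate 5), and 318 to 598 had an unadjusted p under 0.05 without 1 array, against 425 with all. That count was 46 after shifting arrays to a common median, 128 after quantile normalization, 780 without the filter, 197 under the stricter filter at the 75th percentile, and 704 when probe sets were tested singly. The numbers of features tested differ in the last 4. Quantile normalization left Fabp1, Fabp2 and Slc27a2 with no spread, so it gave no value for them. g stayed below 0 for Fabp2 (-1.42 to -0.32) and Fabp7 (-1.16 to -0.55) and above 0 for Fabp5, Slc27a4 and Lpl in the alternatives run. It changed sign, always within intervals that include 0, with arrays shifted to the same median for Fabp1 (0.243), Cd36 (0.017) and Slc27a2 (0.309). Other probe sets gave 0.134 for Fabp1, -0.002 and -0.226 for Fabp4 and 0.123 for Cd36. Without 1 array g ran from -0.305 to 0.127 for Cd36 and from -0.308 to 0.105 for Slc27a2. The spread of array medians, 0.000176, exceeds the median SD over tested genes (1.48e-05). It also exceeds the whole range over the mice of Fabp1, Fabp2 and Slc27a2, so their shifted values largely follow the array offsets.

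Against 4 pairs of members with a correlation past the threshold, 21 passed with arrays shifted to the same median, where the moved offset is shared by all genes, and 3 of the 4 were among them. Also, 1 passed without the 2 mice farthest from the median, 5 with deviations from the diet means (all 4 and Lpl with Pparg), 0 with Spearman's rho, 5 with the actin control as a covariate (2 of the 4, and 3 other pairs with negative r), 1 with the Kupffer marker level as a covariate, 3 without the 4 mice lowest in Fabp5, and 3 to 5 without 1 array. For the remaining changes the cause was not tested. Without the 4 mice lowest in Fabp5, r was 0.23 for Fabp1 and Fabp5 and 0.486 for Fabp5 and Lpl. It was 0.842 for Cd36 and Pparg, 0.724 for Cd36 and Lpl and 0.694 for Lpl and Pparg.

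Nothing in the labels pairs mice across diets, and same-numbered mice deviated together with r from -0.133 to 0.369 (mean 0.053). Only 2 of 20 arrays had their closest match in the array of the same number. With the replicate block 0 genes and 0 members were called, and 501 genes had an unadjusted p under 0.05.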

Other observations

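Most, but not all, hepatocyte markers ran the other way from several members across the mice. Over the 6 hepatocyte markers the median r was -0.58 with Lpl, -0.57 with Cd36 and -0.50 with Pparg, but 0.34 with Fabp4. With Fabp5 it was -0.381, with Fabp1 -0.324 and with Slc27a2 0.007. Of these markers Alb, Apoa1 and Ttr were nearly constant in the deposited values, with SDs of 4.97e-08, 5.53e-08 and 5.90e-08. Those SDs are below that of Slc27a2 (1.27e-07), so whether these 3 markers reflect transcript differences between mice is not known. The single markers ran from -0.786 to 0.12 with Lpl, where 2 of the 6 were positive. They ran from -0.712 to 0.039 with Cd36 and from -0.732 to 0.098 with Pparg, with 1 positive in each. The 7 sinusoidal endothelial markers had median r between -0.11 (Pparg) and 0.15 (Fabp4 and Fabp5) with the members. All 7 had a g above 0 between diets (0.04 to 0.58), against 49.4% of all genes tested, and 0 were called. Second probe sets of these markers gave g of -0.04 for Lyve1, -0.43 for Clec4g and 0.59 for Cdh5. Those of Clec4g (mean 6.25) and Cdh5 (mean 6.01) lay below the filter level. Acta1, a skeletal muscle actin chosen here for its value, had g = -1.23 (unadjusted limma p = 0.0127, adjusted p = 0.9998) at a mean of 6.55, near the filter level, while the muscle markers Mylpf and Ckm had 0.83 and -0.08. A second probe set of Ckm, with a mean of 6.56, had g = -1.37 (unadjusted limma p = 0.00528, adjusted p = 0.999985 over all probe sets), the same direction as Acta1. Cidea, a lipid droplet gene below the filter level at a mean of 6.05, had g = 1.18 (95% interval 0.23 to 2.13), was not tested and was likewise chosen for its value.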
